A study of Mus musculus with 5 samples.

Results

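The contractile stellate cells described here are 248 mouse liver cells that carried the most RNA of 5 genes, most of them known from muscle, within 1 sorted library, vitamin A-positive and Col1a1-positive cells after diethylnitrosamine and a Western alcohol diet (VitA+Col1a1+ DEN+WAD). They were chosen by measured values. Cells of this library with at least 5000 UMIs (unique molecular identifiers, the tags by which captured RNA molecules are counted), at least 1 Lrat UMI and no Pecam1 or Ptprc UMI were eligible, which left 9912 of its 10481 cells. Each eligible cell was scored by its summed UMIs of Lmod1, Lmcd1, Myh11, Fbxl22 and Col8a1 per 10000 UMIs, and the top 2.5% by score became members. The 5 libraries of the series hold 24007 cells in all. Because 68.0% of the eligible cells had none of the 5 RNAs, the cells at or below the median score, against which members were compared, were the 6741 cells with a score of 0. They are called score-0 cells here, and the other 2923 eligible cells lay between.

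Hepatic stellate cells store vitamin A as retinyl esters in lipid droplets, the ester-forming enzyme being Lrat, and lie in the space between the sinusoidal endothelium and the hepatocytes, where they act as the pericytes of the sinusoid. After injury they can become myofibroblast-like cells that make collagen and contract. Contraction rests on actin filaments anchored to dense bodies and pulled by myosin II, whose regulatory light chain is phosphorylated by the kinase Mylk, and smooth muscle alpha-actin (Acta2) is the usual marker of that state.

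All 5 libraries came from male mice of the genotype Rosa26mTmG;Col1a1-Cre (mTmG;CC), bred on C57BL/6J, in which a Cre recombinase driven by the Col1a1 promoter switches a reporter to GFP, so that GFP marks a cell in which that promoter has been active at some time. Mice were given DEN at 10 mg/kg or saline at 2 weeks of age. From 6 weeks they received either a liquid WAD with 3.5% (v/v) ethanol or chow, for 5 months. Non-parenchymal cells released with pronase and collagenase were sorted by the autofluorescence of vitamin A and by GFP. The 4 other libraries were VitA-Col1a1+ DEN+WAD, VitA+Col1a1+ chow with saline, VitA-Col1a1+ chow with saline, and VitA-Col1a1- DEN+WAD. Eligible cells of the last carried Col1a1 RNA at levels given further on, against its label, so it is named here only as the library labelled double-negative. The number of animals behind each library is not given in the sources used here. With 1 library a group there was no replicate: the 95% intervals below cover counting error only, not the spread between cells or animals, and no p-value was computed.

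The libraries held 259 to 10481 cells with median depths of 9105.5 to 24077 UMIs, and the VitA+Col1a1+ DEN+WAD library was the largest in cells with a median of 13232. It shared 1 to 21 cell barcodes with each other library, and no member's barcode was among them. Members had a median of 13844 UMIs and 3848 genes, against 13119 UMIs and 3582 genes in score-0 cells. Mitochondrial genes took a median of 2.67% of UMIs in members and 2.75% in score-0 cells, and ribosomal protein genes 9.68% and 9.48%. The Scrublet doublet caller marked 2 of 10481 cells, too few for it to have worked, so doublets were not removed. Of members, 0.403% were among the cells with the highest Scrublet scores, against 6.84% of score-0 cells.

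The 5 genes that made the score are given as a description, since they chose the members. Myh11, the smooth muscle myosin heavy chain, was found in 197 members at 304 CPM (summed UMIs of the gene for every 1000000 summed UMIs of the cells) and gave 29.1% of all score UMIs. Col8a1, a short-chain collagen of vessel walls, was found in 177 members at 253 CPM. Lmod1, a leiomodin that starts actin filaments in smooth muscle, was found in 157 members at 163 CPM, Fbxl22, an F-box protein of striated and smooth muscle, in 137 at 152 CPM, and Lmcd1, a LIM and cysteine-rich domain protein, in 124 at 175 CPM. A member held 4 to 104 UMIs of the 5 genes, with a median of 12. Scores of members ran from 4.96 to 48.5 per 10000 with a median of 7.68. The 5 members just inside the bound scored 4.96 to 4.99 and the 5 cells just outside 4.89 to 4.96, so no gap in the score separates members from the next cells.

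In turn, 1 of the 5 genes was left out of the score and the top 2.5% was chosen on the other 4. The gene left out took no part in that choice. All 5 were put together with earlier results of these data known, so the values below are a description, not independent support. Lmod1 then stood at 138 CPM in the cells chosen and 1.54 CPM in the cells with none of the other 4, an 89.6-fold difference (95% interval 74.6 to 108). Lmcd1 was 54.7-fold (47.3 to 63.5) and Col8a1 19.7-fold higher (17.7 to 22.0). Myh11 was 13.7-fold (12.7 to 14.9) and Fbxl22 10.1-fold higher (8.97 to 11.4). In these cells, chosen by the remaining 4 genes, each gene was high, and 196 to 229 of the 248 cells stayed the same.

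Promoters of the score genes and of the contractile lists were read for the motifs of SRF and TEAD, factors known to act on muscle genes, because these genes were high in the same cells. The sequences are those of RefSeq on GRCm38.p6, written 5′ to 3′ on the strand of the gene, and capitals mark a CArG box, the SRF motif, or CATTCC, the TEAD motif, on either strand (GGAATG on the other). Acta2 and Fbxl22 are shown only around the match.

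Lmcd1, chr6:112273508-112273657: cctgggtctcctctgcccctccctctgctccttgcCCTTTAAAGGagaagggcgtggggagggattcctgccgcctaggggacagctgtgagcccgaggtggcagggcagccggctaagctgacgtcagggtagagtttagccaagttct
Fbxl22, chr9:66514796-66514825: aaaagaaatcCCTTTTAAGGaaaacttgta
Lmod1, chr1:135324563-135324712: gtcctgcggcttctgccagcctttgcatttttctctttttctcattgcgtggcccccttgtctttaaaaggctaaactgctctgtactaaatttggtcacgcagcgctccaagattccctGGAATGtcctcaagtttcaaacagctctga
Acta2, chr19:34255502-34255531: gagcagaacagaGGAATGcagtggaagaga
Myl9, chr2:156775214-156775363: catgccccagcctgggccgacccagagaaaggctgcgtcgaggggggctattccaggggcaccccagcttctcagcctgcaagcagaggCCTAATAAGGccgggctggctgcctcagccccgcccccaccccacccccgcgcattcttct
Vcl, chr14:20929148-20929297: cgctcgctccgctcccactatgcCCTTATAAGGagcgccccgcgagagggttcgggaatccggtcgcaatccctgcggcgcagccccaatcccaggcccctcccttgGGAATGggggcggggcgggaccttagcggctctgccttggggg

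In the 250 bases before the start site, a CArG box lay 215 bases upstream of Lmcd1 and 222 bases upstream of Fbxl22, and CATTCC lay 130 bases upstream of Lmod1 and 58 bases upstream of Fbxl22. Of the score genes, 4 of 5 had a promoter in the table. A CArG box was in 1.41% of the 23745 promoters of 19407 matched genes. It was in 8 of the 66 promoters (12.1%) of the actin, myosin and dense body lists, of whose 64 genes 54 matched. CATTCC was in 11.9% of all promoters and in 24.2% of those of the 3 lists. Over all genes tested, 1.15% of promoters held a CArG box and 10.6% CATTCC. These shares were 2.69% and 16.1% among genes higher in members. Among genes lower in members these shares were 2.61% and 13.4%. A match is a string of letters in this window and says nothing of binding in these cells.

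Acta2, a marker that the score did not use, was 130-fold higher in members. It stood at 2053 CPM (2009 to 2097) in members and 15.8 CPM in score-0 cells, a log2 ratio of 7.02 (6.94 to 7.10). The gene lies at chr19:34241090-34255590 on the minus strand (mm10, GENCODE M21). Over single members its level ran from 0 through a median of 6.1 to 196 per 10000 UMIs. It was found in 167 of 248 members, and 50% of its UMIs came from 23 of them. In score-0 cells the median was 0 and the highest cell 49.7 per 10000, so the 2 groups overlap. With every cell thinned to 5000 UMIs, 63.7% of members (57.4 to 69.7) and 2.37% of score-0 cells (2.02 to 2.77) held an Acta2 UMI. Cells with a Ptprc UMI in the library labelled double-negative, blood cells that should lack the gene, held one in 4.77% (3.17 to 6.86) after the same thinning, and in 16.6% at their full median depth of 16420.5 UMIs. Such cells come from another library, so the free RNA of this one was not measured. The 2.37% of score-0 cells lay below the blood cell share and is not read as expression, but a few score-0 cells stood out, 18 of them holding 50% of the 1490 Acta2 UMIs. The other 81 members had no Acta2 UMI, while 97 members held over 20. An Acta2 UMI was thus found in 67.3% of the cells that the rule chose. Since 16.6% of the blood cells held one at full depth, a UMI alone does not settle the label for a cell. Nor does its absence, as members without Acta2 were shallower (median 12011 UMIs) than those with over 20 (19589).

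**Figure D1:**
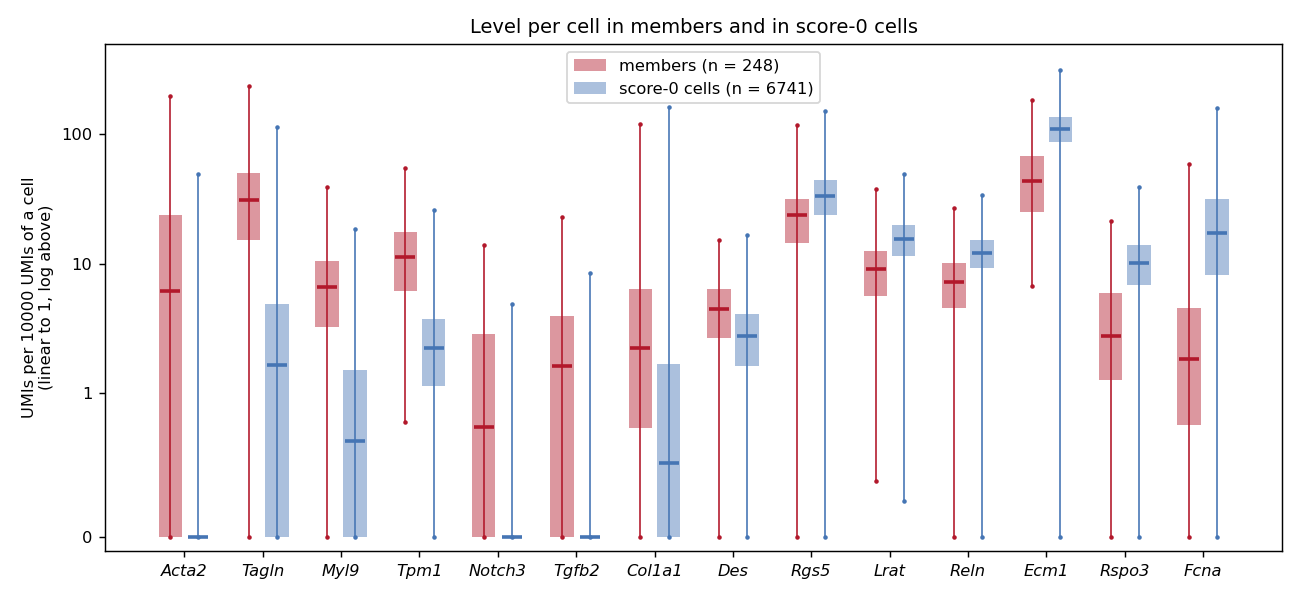
Level of 14 genes in single cells, in UMIs per 10000 on the vertical axis (linear to 1, log above), for 248 members in red and 6741 score-0 cells in blue, with bars from the lower to the upper quartile, dashes at the medians and lines over the whole range. Acta2 runs from 0 to 196 in members with a median of 6.1, against a median of 0 in score-0 cells, while the medians of Lrat and Ecm1 are lower in members and the ranges overlap.

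Over all 7946 genes tested, those that were no score gene and had a mean of both levels of at least 10 CPM, 601 (7.56%) were higher and 270 (3.4%) lower in members. A gene was called where the summed CPM differed by at least 1.5-fold and the 95% interval of the ratio excluded 1. A gene low in score-0 cells passes that filter only through members. With the filter set instead on the level over all eligible cells, 452 were higher and 295 lower. The median log2 ratio over all genes tested was 0.06, and with edgeR's TMM scaling it was -0.04 and the split moved to 460 higher and 403 lower. The higher genes were not all spread over many cells: 37 had 50% of their UMIs in 5 members or fewer, and 17 had over 25% of them in 1 member.

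The 15 genes with the highest ratios included Acta2. All the others stood under 10 CPM in score-0 cells and passed the filter only through members, so their direction was fixed by it. Notch3, the Notch receptor of mural cells, was found in the most members after Acta2 among these 15, with UMIs in 142 members. It stood at 169 CPM in members and 2.40 CPM in score-0 cells. Single members ran from 0 through a median of 0.761 to 13.8 Notch3 UMIs per 10000, and 2.45% of score-0 cells held any. Nov, a secreted CCN family protein, had a ratio of 978, but its interval ran from 327 to 4807 because score-0 cells held 3 UMIs, and 27 members carried it. Wisp2, another CCN protein, stood at 50.2 CPM against 0.15 in 19 members, and Actg2, the enteric smooth muscle actin, at 24.4 CPM against 0.05 in 12 members, 3 of which held 50% of its UMIs. Ephx3, an epoxide hydrolase, stood at 26.3 against 0.19 CPM in 30 members and Angpt2, a ligand that antagonizes Tie2, at 21.9 against 0.23 CPM in 46. Ankrd1, a muscle ankyrin repeat protein and YAP target, stood at 115 against 3.41 CPM, but 5 of its 62 members held 50% of its UMIs. The remaining 7 were Ebf1, Chrdl1, Olfm2, Olfml2b, Cavin2, Vegfd and Tppp3, with ratios from 26.2 to 39.3 and in 29 to 72 members each.

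**Figure D2:**
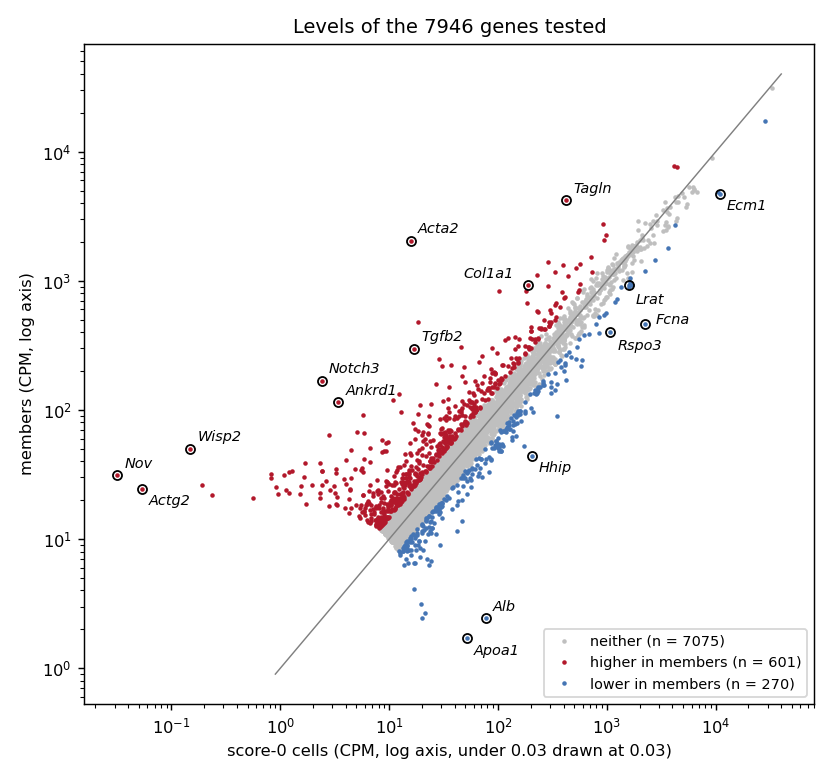
Level in members against level in score-0 cells for each of the 7946 genes tested, both axes in CPM on log scales, with genes higher in members in red and lower ones in blue. Acta2 lies at 2053 against 15.8 and Ecm1 at 4690 against 10880, with most genes along the diagonal.

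Of 15 tested genes of the actin filament, 10 were higher and 0 lower, with a median log2 ratio of 1.05 against 0.06 over all genes tested. Actg2 among them passed the filter only through members. Set on the level over all eligible cells, the filter left 14 genes, 9 of them higher, with a median of 0.91. Tagln, the actin cross-linker transgelin, stood at 4240 CPM in members and 421 in score-0 cells, a log2 ratio of 3.33 (3.31 to 3.36). Single members ran from 0 through a median of 31.3 to 235 Tagln UMIs per 10000, score-0 cells had a median of 1.65, and 242 members held it. Tpm2, a tropomyosin that lies along the filament, stood at 309 against 46.1 CPM and Tpm1 at 1399 against 290. Cnn2, a calponin, stood at 301 against 88.9 CPM. Cald1, which restrains myosin on the filament, stood at 2066 against 931 CPM. Cytoplasmic actin Actb reached 7612 against 4454 CPM, while Actg1 at 2497 against 1914 did not pass. Calponin 1, Cnn1, was under the filter at 4.14 CPM and in 5 members.

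Of 18 tested genes of myosin and its regulation, 8 were higher, 10 did not pass and 0 were lower, with a median log2 ratio of 0.51. With TMM scaling 5 of the 18 passed. Myl9, the regulatory light chain, stood apart at 829 against 101 CPM, a log2 ratio of 3.03 (2.98 to 3.09), in 233 members. Single members had a median of 6.57 Myl9 UMIs per 10000 and score-0 cells 0.662. Its kinase Mylk stood at 732 against 404 CPM, the phosphatase inhibitor Ppp1r14a at 594 against 299, the essential light chain Myl6 at 1540 against 712 and non-muscle heavy chain Myh10 at 51.2 against 19.9. The heavy chain Myh9, at 522 against 342 CPM, was just past the fold. Rhoa and Rock1, which act upstream on the phosphatase, had log2 ratios of 0.23 and 0.51 and did not pass.

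Dense body, adhesion and intermediate filament genes were higher in 15 of 26 tested, with 0 lower and a median log2 ratio of 0.66. Among them were the actin bundlers Palld (log2 ratio 1.95) and Nexn (1.73), the focal adhesion genes Zyx (1.28), Vcl (1.11) and Tgfb1i1 (1.46), the filament cross-linkers Flna (1.37) and Actn1 (1.04), and the LIM proteins Pdlim7 (1.13) and Csrp1 (0.96). Vim, the intermediate filament of mesenchymal cells, stood at 2246 against 985 CPM. Des, long used as a stellate cell marker in rodents, stood at 478 against 304 CPM, near the fold. Integrins Itga1 and Itgb1 did not pass, with log2 ratios of 0.24 and 0.55. Of the 26 genes, 2 were under 10 CPM in score-0 cells and passed the filter only through members. On the level over all eligible cells, 13 of 24 were higher and the median was 0.65.

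Receptors, channels and calcium genes did not move one way. Of 22 tested, 4 were higher and 3 lower, with a median log2 ratio of 0.16. Under the filter on the level over all eligible cells, 3 of 21 were higher and 3 lower, with a median of 0.12. The 4 higher genes were the plasma membrane calcium pump Atp2b4 (56.5 against 9.78 CPM), the channel subunit Cacnb2 (26.6 against 10.0), the thromboxane receptor Tbxa2r (17.3 against 7.49) and the cGMP phosphodiesterase Pde5a (47.8 against 30.5). Atp2b4 and Tbxa2r, under 10 CPM in score-0 cells, passed the first filter only through members, so their direction was fixed by it. Lower were both subunits of the potassium channel of pericytes, Kcnj8 (243 against 593 CPM) and Abcc9 (398 against 845), and the sphingosine phosphate receptor S1pr3 (135 against 227). The endothelin receptors did not pass: Ednra stood at 201 against 278 CPM and Ednrb at 740 against 530. The angiotensin receptor Agtr1a had a log2 ratio of -0.52.

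Among regulators of muscle genes, 5 of 19 tested were higher and 3 lower, with a median log2 ratio of 0.14. Besides Notch3, the higher genes were Mef2c (215 against 48.8 CPM) and, near the fold, Srf (80.9 against 51.3), the Notch target Heyl (235 against 154) and Foxs1 (198 against 129). Lower were Hes1, also a Notch target (1802 against 3623 CPM), Lhx2, a LIM homeobox factor of quiescent stellate cells (172 against 417), and, near the fold, Hand2 (245 against 369), which did not pass in 11 of the 18 other settings tried. Tcf21 and Tead1 did not pass, with log2 ratios of -0.48 and 0.51. Myocd, the smooth muscle coactivator of SRF, had 0 UMIs in members.

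**Figure D3:**
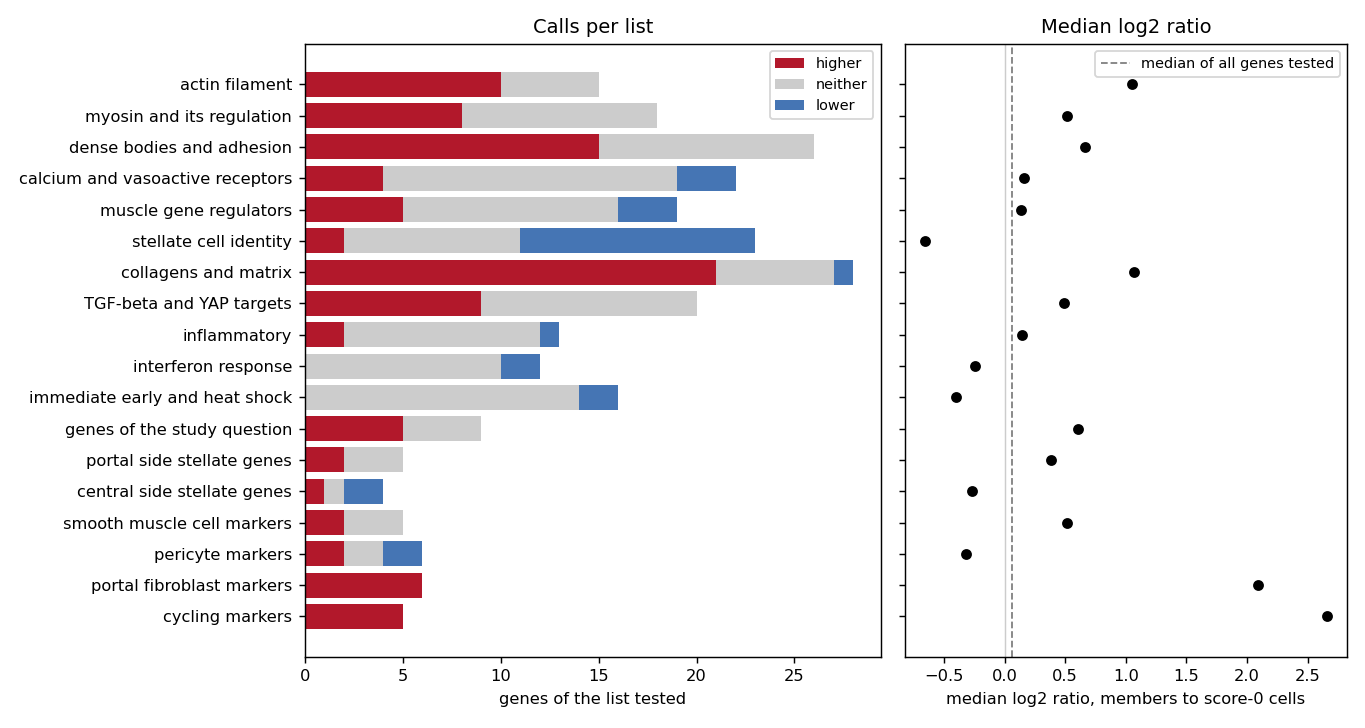
For each gene list with at least 4 tested genes, the number of genes higher, lower or neither in members (left) and the median log2 ratio of members to score-0 cells (right, the dashed line being the median over all genes tested). The actin filament list has 10 of 15 genes higher and a median of 1.05, and the stellate cell identity list 12 of 23 lower and a median of -0.66. Of the actin filament list, 1 tested gene was under 10 CPM in score-0 cells and passed the filter only through members.

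Of 23 tested genes that mark stellate cells, 12 were lower, 2 higher and 9 neither, with a median log2 ratio of -0.66. Ecm1, a secreted matrix protein, stood at 4690 CPM in members and 10880 in score-0 cells. Single members ran from 6.73 through a median of 43.9 to 184 Ecm1 UMIs per 10000. Score-0 cells ran from 0 through a median of 109 to 317, so members sat in the lower part of an overlapping range. Lrat stood at 921 against 1592 CPM, with every member holding it because the rule asked for it. Reln stood at 723 against 1244 CPM, the hepatocyte mitogen Hgf at 527 against 850, the WNT amplifier Rspo3 at 404 against 1073, the hedgehog-binding Hhip at 44.1 against 204 and the bone morphogenetic protein Gdf2 at 384 against 692. Decorin (Dcn), the chemokine Cxcl12, Angptl6 and Pdgfra were also lower, with log2 ratios of -0.91 to -0.66. The 2 higher genes were Pdgfrb and the nerve growth factor receptor Ngfr, at log2 ratios of 0.61 and 0.60, near the fold. With TMM scaling 15 were lower and 0 higher. Colec11 and Sod3 did not pass, at log2 ratios of -0.23 and 0.10. Among the 10 lowest genes of all was Fcna, a ficolin, at 462 against 2245 CPM. Single members had a median of 1.84 Fcna UMIs per 10000 and score-0 cells 17.4.

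Collagen and matrix genes were higher in 21 of 28 tested and lower in 1, with a median log2 ratio of 1.07. Of the 28, 3 were under 10 CPM in score-0 cells and passed the filter only through members. Set on the level over all eligible cells, the filter left 26 genes, 19 higher and 1 lower, with a median of 1.05. Col8a1, a score gene, is a matrix gene too, and with Col8a1 left out of the score 17 were higher and the median was 0.83. Col3a1 stood at 2755 against 928 CPM, Col1a2 at 1255 against 521 and Col4a1 at 1357 against 570. Col1a1 stood at 933 against 189 CPM, a log2 ratio of 2.30 (2.25 to 2.35), but 15 members held 50% of its UMIs. Single members ran from 0 through a median of 2.24 to 120 Col1a1 UMIs per 10000. Fibronectin (Fn1), tenascin (Tnc), and the cross-linking enzyme Lox had log2 ratios of 1.09, 2.53 and 2.44. The protease inhibitor Timp1 had one of 0.70 and did not pass in 12 of the 18 other settings, the lowest being 0.23 with cells over 30000 UMIs left out. Spon2 was lower, at 60.7 against 100 CPM, but with Myh11 left out of the score its log2 ratio was 0.10. Its call also ended in the top 5% (-0.39) and without cells with Actg2, Cnn1 or Pln (-0.55). The proteoglycans Bgn and Lum, at log2 ratios of -0.21 and -0.46, and Col14a1, at 0.34, did not pass.

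Of 20 TGF-beta and YAP genes tested, 9 were higher and 0 lower, with a median log2 ratio of 0.49. With the filter set on the level over all eligible cells, 7 of 18 were higher with a median of 0.27. The ligand Tgfb2 stood at 299 against 17.0 CPM, a log2 ratio of 4.14 (4.03 to 4.25), and was found in 183 members. Single members ran from 0 through a median of 1.60 to 23.0 Tgfb2 UMIs per 10000, and score-0 cells had a median of 0. Tgfb3 stood at 91.6 against 5.71 CPM in 116 members, while Tgfb1 at 108 against 117 did not pass. Of the YAP targets, Ctgf stood at 1102 against 230 CPM and Ankrd1 as above, while Cyr61 did not pass at 1624 against 1593. The TGF-beta target Thbs1 had a log2 ratio of 1.57, and Crim1, which binds bone morphogenetic proteins, 1.11. Yap1 itself, at 60.2 against 60.5 CPM, and the receptor Tgfbr2, at 70.2 against 79.3, did not pass.

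A list drawn up around the study's question, not all of it genes that its text follows in stellate cells, gave 5 higher of 9 tested and 0 lower, with a median log2 ratio of 0.61. Higher were Ereg, an EGF receptor ligand (68.9 against 18.2 CPM), the hyaluronan receptor Cd44 (66.3 against 22.5), the protease Mmp23 (103 against 35.0), the AXL ligand Gas6 (55.3 against 9.36) and, near the fold, Scd1 (18.5 against 12.2), the desaturase isoform of hepatocytes. Gas6, under 10 CPM in score-0 cells, passed the filter only through members, and 5 members held 50% of its UMIs. Scd1 did not pass in most of the other settings tried. Its log2 ratio was 0.27 in the top 1% and 0.15 with members chosen on a random 50% of UMIs. Scd2, the stearoyl-CoA desaturase at the centre of the study, did not pass at 52.9 against 63.3 CPM, nor did Ctnnb1 at 191 against 179 and Vegfa at 24.9 against 22.2. Ltb4r2 was found in 1 member. Cyp1b1 was under the filter, at 14.6 against 2.78 CPM in 23 members.

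Inflammatory genes gave 2 higher and 1 lower of 13 tested, the lower one being the chemokine Cxcl14 at 217 against 381 CPM. With the filter on the level over all eligible cells, 1 of 12 was higher and 1 lower. Of the interferon response, 2 of 12 were lower, Isg15 (934 against 1710 CPM) and Ifit3 (162 against 259), and 0 higher. Of the immediate early and heat shock genes, 2 of 16 were lower, Ier3 (259 against 471) and Dnajb1 (684 against 1194), and 0 higher, with a median log2 ratio of -0.40. Ccl11 had a ratio of 11.3, but 1 member held over 50% of its UMIs, and without that cell the log2 ratio was -0.16.

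Markers of other cell types were read for the whole of each list. Of the smooth muscle markers, 2 of 5 tested were higher with a median log2 ratio of 0.51, and the defining genes Pln, Casq2, Npnt and Myocd had 0 UMIs in members. That is 0 of 248 cells for each, which allows up to 1.21% of cells with a UMI and sets no limit on cells expressing the gene at a lower level. With the filter on the level over all eligible cells, 0 of 3 smooth muscle markers passed. Of the pericyte markers 2 were higher and 2 lower of 6, Rgs5 not passing at 2496 against 3489 CPM. Of 12 portal fibroblast markers, 9 had a ratio above 1, and Gli1, Pi16 and Slit2 had 0 UMIs in members. The 6 that passed the filter were called higher, Dpt (160 against 27.0 CPM), Fbln1 (23.9 against 1.12), Mfap4 (26.3 against 1.94), Clec3b (19.0 against 6.22), Eln (48.7 against 18.9) and Entpd2 (17.8 against 9.83). The 4 of them under 10 CPM in score-0 cells, Fbln1, Mfap4, Clec3b and Entpd2, passed the filter only through members, so their direction was fixed by it. With the filter on the level over all eligible cells, 3 were tested and higher. The summed level of the 12 was 0 to 51.2 per 10000 in single members with a median of 0.766, and 12 members carried Mfap4. The defining pair Thy1 and Fbln2 stood at 4.39 and 2.68 CPM, in 11 and 3 members. Thy1 was found in 4.44% of members and 0.178% of score-0 cells, and Fbln2 in 1.21% and 0.653%. After thinning, Thy1 was found in 1.61% of members (0.441 to 4.08) and 0.104% of score-0 cells (0.0418 to 0.214). Fbln2 was then found in 0.806% (0.0978 to 2.88) and 0.282% (0.170 to 0.440), and these intervals overlap. The part of portal fibroblast RNA in the results above was not tested.

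Macrophage markers summed to 8.77 CPM in members and 3.87 in score-0 cells, mesothelial ones to 9.75 and 5.53, lymphocyte ones to 0.487 and 0.340, neutrophil ones to 0.487 and 0.319, and cholangiocyte ones to 2.44 and 12.5, and none of their genes reached the filter. Of 2 endothelial markers tested, Clec4g was higher (65.1 against 22.9 CPM) and Egfl7 lower (47.8 against 101), with Pecam1 at 0 by the rule. Hepatocyte markers Alb and Apoa1 were among the 10 lowest genes, but 1 score-0 cell held over 50% of each, as of Ahsg. Without each gene's highest cell, Ahsg had a log2 ratio of 1.16. Cyp2e1, also of hepatocytes, was higher at 22.4 against 1.52 CPM in 11 members, but it passed the filter only through members. With the filter on the level over all eligible cells, 0 hepatocyte markers were higher and 2 lower. Red cell and platelet markers gave 0 calls of 2. The 5 cycling markers tested, of 8 listed, were higher, but 4 of them passed the filter only through members, 9 members carried Top2a and 1 of them held over 50% of its UMIs, and with cells over 30000 UMIs left out 1 of the 5 passed.

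Levels differed along the whole score and not only at the member bound. From score-0 cells through 5 bands to the top 1%, Acta2 stood at 15.8, 65.8, 74.1, 232, 349, 1039 and 3562 CPM. Lrat stood at 1592, 1518, 1433, 1329, 1195, 1003 and 800 CPM over the same bands. Between the first band and the last, Notch3 went from 2.40 to 270 CPM and Tgfb2 from 17.0 to 450, while Ecm1 went from 10880 to 3694, Rspo3 from 1073 to 272 and Fcna from 2245 to 398. Col1a1 stood at 189 CPM in score-0 cells, at 764 in the band just outside the member bound and at 964 in the top 1%, whereas Acta2 stood at 15.8, 349 and 3562 in these bands.

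**Figure D4:**
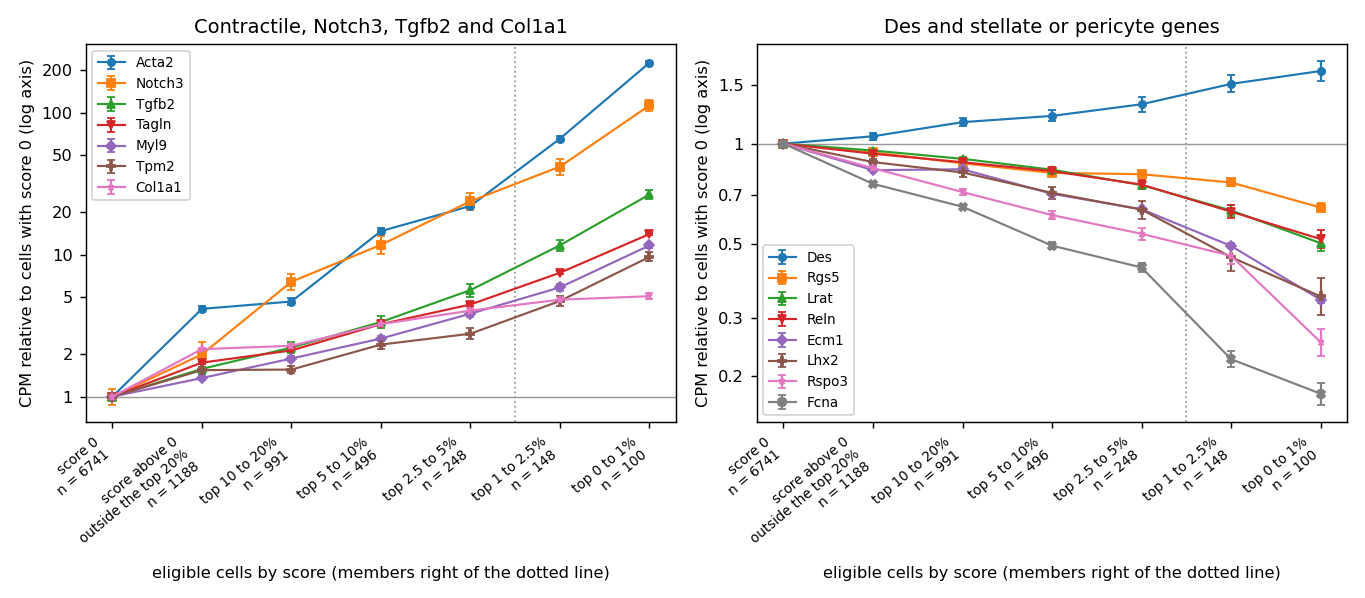
Level of 15 genes relative to score-0 cells (CPM ratio, log axes) in 7 bands of the score, with 95% counting intervals. Acta2 stands at 15.8 CPM in the first band and 3562 in the last and Lrat at 1592 and 800, and members lie right of the dotted line.

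Members differed among themselves by how many of the 5 score genes they held. The 28 members with 1 score gene stood at 181 CPM of Acta2 and 8840 of Ecm1, the 43 with 2 at 715 and 5027, the 68 with 3 at 1291 and 4566, the 71 with 4 at 3224 and 3818, and the 38 with all 5 at 3387 and 3766. Median depth was 12426 UMIs in the first of these sets and 19420 in the last, and its part in the number of genes found was not tested. By Acta2 itself, the 81 members without it had Tagln at 1562 CPM, Lrat at 1207 and Col1a1 at 396. The 97 with over 20 Acta2 UMIs had 6300, 689 and 1439. These sets had median depths of 12011 and 19589 UMIs. Members without Acta2 therefore still carried Tagln above the 421 CPM of score-0 cells, and more Lrat than the others.

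The gene that led the score divided members further. The 72 led by Col8a1 had Col1a1 at 1558 CPM, Acta2 at 1435 and Wisp2 at 149, with 0 Actg2 UMIs. The 82 led by Myh11 had Col1a1 at 660 CPM, Acta2 at 2330 and Ngfr at 381. The 31 led by Fbxl22 kept the most Ecm1, at 6397 CPM, and the least Notch3, at 32.7. Those led by Lmcd1 (30) and Lmod1 (33) had Acta2 at 2975 and 2452 CPM. Lead gene and depth are tied to the choice of members, so these are descriptions.

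Some rare genes were found in members that all held Acta2 and others were not. All 12 members with Actg2, all 27 with Nov, all 30 with Ephx3 and all 19 with Wisp2 held Acta2, which 67.3% of all members did, while 9 of 13 with Mki67 and 7 of 14 with Ccl11 held it. All 30 with Ephx3 held Notch3, against 57.3% of members, and 19 of them held Angpt2. Nov and Ephx3 shared 12 members. All 23 with Cyp1b1 held Col1a1 and 7 of them Notch3. Across the 248 members, levels of Acta2 and Ecm1 had a Pearson correlation of -0.57, Acta2 and Lrat one of -0.46, Acta2 and Lmod1 one of 0.58, and Acta2 and Col8a1 one of 0.04. These points share 1 library and differ in depth, and levels of score genes are bounded by the choice of members.

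The other libraries were read with the same 5 genes, each eligible cell thinned to 5000 UMIs and counted where it held at least 3 score UMIs. In the VitA+Col1a1+ DEN+WAD library 2.80% of eligible cells (2.49 to 3.15) passed, and in VitA+Col1a1+ chow 3.03% (1.23 to 6.14), which is 7 of 231 cells. The 2 intervals overlap and cover counting error only, so with 1 library each the treatments cannot be compared. Of VitA-Col1a1+ DEN+WAD cells 16.5% (14.8 to 18.3) passed. The library labelled double-negative gave 35.9% (34.2 to 37.5) and VitA-Col1a1+ chow 43.3% (38.7 to 47.9). Cells high in these genes thus made up a larger share of eligible cells in each library sorted as VitA-. With 1 library a group, the sort, the treatment, the animals and the run cannot be told apart.

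**Figure D5:**
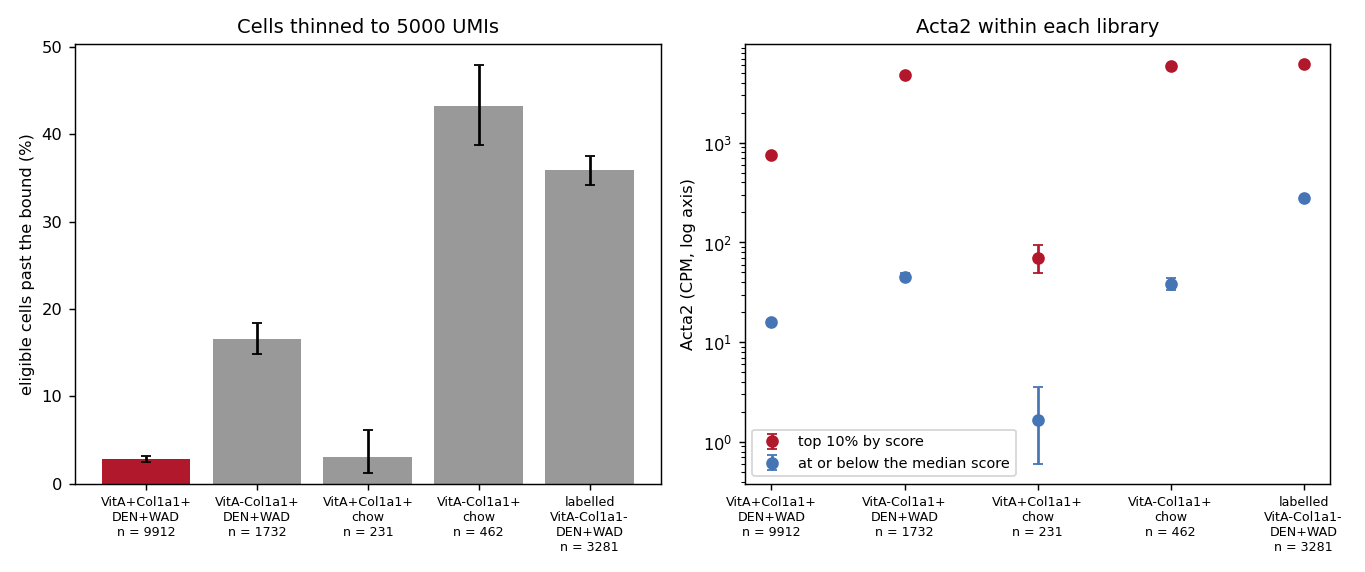
Left, eligible cells with at least 3 score UMIs after thinning to 5000 UMIs, in percent of the eligible cells of each library with 95% exact binomial intervals. Right, Acta2 in CPM (log axis) in the top 10% of eligible cells by score and in those at or below the median score of the same library, with 95% counting intervals. The vitamin A-positive libraries stand at 2.80% and 3.03% on the left and the others at 16.5% to 43.3%, and Acta2 is higher in the top-scoring cells of all 5 libraries.

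Cells past the members' score in the VitA- libraries carried more Actg2 and Cnn1 and less Lrat, Ecm1 and Ngfr than members. Actg2 stood at 24.4 CPM in members. Those of VitA-Col1a1+ DEN+WAD carried 101 CPM of it, those after chow and saline 158, and those of the library labelled double-negative 128. Cnn1 stood at 4.14, 29.1, 89.5 and 35.2 CPM in members and these libraries in that order, Lrat at 921, 372, 461 and 711, and Ecm1 at 4690, 1789, 801 and 1037. Ngfr went the same way, at 270, 77.6, 23.3 and 109 CPM. Acta2 stood at 2053, 3538, 2485 and 3565 CPM and Col1a1 at 933, 1928, 2057 and 2147, the last against the label of its library. In VitA+Col1a1+ chow 4 cells were past the score, too few to describe. The requirement of Lrat removed cells from the VitA- libraries: 87, 66 and 99 cells of the 3 libraries in that order were past the score without an Lrat UMI, with Actg2 at 190, 620 and 285 CPM.

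Within each of these libraries, cells past the members' score were compared with cells at or below the median score of the same library. For VitA-Col1a1+ DEN+WAD 799 genes (9.79%) were higher and 527 (6.46%) lower. The chow-fed VitA-Col1a1+ library gave 690 (8.17%) and 551 (6.53%), and the library labelled double-negative 500 (6.08%) and 588 (7.15%). Of the 601 genes higher in members, 411 (68.4%) were higher in VitA-Col1a1+ DEN+WAD too, 51.4% of its own, and 246 (40.9%) and 291 (48.4%) in the other 2, 35.7% and 58.2% of their own. Of the 270 lower, 216 (80%) were lower in VitA-Col1a1+ DEN+WAD, 41.0% of its own, and 96 (35.6%) and 167 (61.9%) in the other 2, 17.4% and 28.4% of their own. Tested in these libraries, in that order, were 564, 556 and 572 of the 601 higher genes and 250, 207 and 240 of the 270 lower. Genes not tested there count as not shared. Opposite calls numbered 3, 35 and 30 of the higher genes and 0, 3 and 1 of the lower. Of the 15 highest genes, 15, 14 and 14 were higher there, and of the 10 lowest 5, 5 and 6 were lower. All of the 15 but Acta2 had passed the filter only through members, so these counts are a description. These median scores were 0.637 to 3.69, not 0, so the comparison cells differ between libraries.

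With the cells of each library split by their own scores, top 10% against those at or below the median, Acta2 had a log2 ratio of 5.57 (5.49 to 5.65) in VitA+Col1a1+ DEN+WAD and 5.40 (4.15 to 6.93) in VitA+Col1a1+ chow. It was 6.73 for VitA-Col1a1+ cells after DEN+WAD, 7.28 for those after chow and 4.45 in the library labelled double-negative. Col1a1 had ratios of 3.90 and 1.82 (1.41 to 2.33) in the vitamin A-positive libraries after DEN+WAD and chow, 4.16 in VitA-Col1a1+ DEN+WAD, 1.12 in its chow counterpart and 1.04 in the library labelled double-negative. Lrat was lower in the top-scoring cells of all 5 libraries, with ratios of 0.246 to 0.805.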

How the data were processed

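Single-cell RNA was measured in 5 10x Genomics libraries, 1 per group. The deposited files hold raw UMI counts of 31053 features per cell, which the authors made with Cell Ranger on mm10. Version 3.1.0 stands in the submitters' processing notes and in 4 matrix headers, and 6.1.2 in that of the VitA-Col1a1- DEN+WAD matrix. The labels name both a v3.1 and a v2 kit. No sample column was left unmapped. Members and gene lists were chosen with earlier results of these data known.

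Counts were summed over members and over score-0 cells and expressed as CPM. Ratios carry exact conditional binomial intervals, levels exact Poisson intervals and shares exact Clopper-Pearson intervals, at 95%. The named genes were the score genes, Acta2, list members, and the 15 highest and 10 lowest ratios among tested genes. Values of a few of these genes are not reported here. Counts were thinned to 5000 UMIs where shares of cells are compared. The calling was tested on simulated data. Gene positions come from GENCODE M21, in which all 159 genes looked up were found, and promoters from RefSeq. Alternatives covered the scaling (edgeR 4.0.16), depth, bound, score genes, filter and fold. Python 3.11.15, scanpy 1.11.5 and scipy 1.17.1 were used.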

Additional observations from a re-analysis of the deposited data

How the results depend on the processing

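For 153 named genes over 18 alternatives, 2750 log2 ratios were recomputed: 2586 kept their direction and their side of the call, 132 kept the direction but were no longer called, 22 became called and 10 reversed. Acta2 was called in all of them, from 5.37 against all other eligible cells to 7.82 in the top 1%. Calls near the fold ended in 12 alternatives for Timp1, in 11 for Hand2 and Scd1, in 10 for Myh9 and in 3 to 9 for Ngfr, Srf, Pdgfrb, Foxs1, Heyl, Des, Cxcl12 and Pde5a, and with Myh11 left out of the score Ngfr stood at 0.08 and Pde5a at 0.32. Reversed were Ahsg (1.96) and Apoa1 (0.087) at most 30000 UMIs and 1.16 and 0.52 without each gene's highest cell, Mki67 (-0.31) and Top2a (-0.47) at most 30000 UMIs, Ccl11 (-2.28 in the top 1%, -1.73 with Myh11 left out, -0.16 without its highest cell) and Spon2 (0.10 with Myh11 left out). For Ahsg, Apoa1 and Ccl11 the highest cell decided the sign, and for the others the cause was not tested. The settings of at most 30000 UMIs, without each gene's highest cell and without the 8% with the highest Scrublet score were added after seeing the data.

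Genes higher in members numbered 1502 with no filter, 215 at 50 CPM or more and 283 at 2-fold. Genes lower numbered 515, 132 and 71 under these, 536 in the top 1% and 136 in the top 5%. Among the gene lists, higher myosin genes numbered 14 in the top 1% and 5 in the top 5%, higher muscle gene regulators 2 with TMM scaling against 5, lower stellate identity genes 7 in the top 5% against 12, and higher cycling markers 1 at most 30000 UMIs against 5. Thinned shares moved in VitA-Col1a1+ DEN+WAD to 18.7% with Lrat not required, 22.7% at a bound for the top 5% and 19.6% without Myh11, and in VitA-Col1a1+ chow to 56.3% at that bound and 53.9% without Col8a1. In the library labelled double-negative they moved to 43.5% at 10000 UMIs or more, 33.7% with Lrat not required, 45.6% at that bound, 38.7% without Col8a1 and 39.0% without Myh11, and its cells past the score without Lrat to 59 at 10000 UMIs or more. The VitA+Col1a1+ DEN+WAD share rose above its main interval at the bound for the top 5%, without Col8a1 and without Myh11. The VitA+Col1a1+ chow share stayed within its main interval. It lay above the VitA+Col1a1+ DEN+WAD share in the main setting and below it in each alternative. The cause of these shifts was not tested. No paired analysis was possible because each group has 1 library with no replicate number. Leaving out a library was not possible for the same reason. Counting error is the only error these intervals hold, and genes in under 50 members rest on few cells.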

Other observations

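Some further genes were picked out after their values were seen, so their levels are a description. Vtn, the adhesion protein vitronectin, stood at 249 CPM in members and 28.6 in score-0 cells, in 120 members, with a highest member of 28.4 per 10000. Along the score it went from 28.6 CPM to 303 in the top 1%. S100a6, a calcium-binding protein, stood at 481 against 18.4 CPM in 91 members, 12 of which held 50% of its UMIs. Inmt, a methyltransferase, was lower at 52.9 against 173 CPM.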
